A study of Danio rerio with 8 samples.

Results

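The keratin genes of the enveloping layer and epidermis were followed in zebrafish primordial germ cells (PGCs, the cells from which eggs and sperm later form). The 9 symbols, chosen by name, are krt4, krt5, krt8, krt18a.1, krt17, krt92, cyt1, cyt1l and krtt1c19e. All 9 were found among the 31200 symbols of the deposited expression table, and 8 of the 9 passed the filter for testing. The study asked how the GPI transamidase, which attaches glycosylphosphatidylinositol anchors to proteins and of which pigu codes for a subunit, affects PGC migration. Pools of PGCs from wild type embryos and from pigu-/- embryos were sequenced by SMART-seq2 at the shield stage (early gastrula) and at the bud stage (when gastrulation ends). There were 2 libraries in each of the 4 groups, called replicates 1 and 2, which the series describes as biological replicates.

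In every group the PGCs carried an injected mRNA for GFP with the nanos1 3′ UTR, and fluorescent cells were picked by mouth pipette from embryos that had been freed of yolk and mechanically dissociated. The protocols name the Tuebingen and India wild type strains and the line Tg(kop:EGFP-nanos 3′UTR), without saying which library came from which. The pigu allele, the number of embryos or cells in a pool and the cells' age in hours are not given in the sources used here. Since whole embryos were dissociated, cells of the embryo's surface may have been in the dish from which PGCs were picked. Whether any were picked was not tested. In such pools fewer cells of a type and less RNA per cell cannot be told apart.

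Keratins are the intermediate filament proteins of epithelia, and a filament is built from pairs of a type I and a type II keratin. In the zebrafish gastrula the enveloping layer is the outermost epithelium, a sheet of flat cells that later forms the periderm, and keratins are among its most abundant products. The basal epidermis lies beneath it and is known for other keratins and for the transcription factor tp63. krt4, krt5 and krt8 code for type II keratins, krt18a.1 for the type I partner known in mammals to pair with keratin 8, and cyt1 is named for the enveloping layer. PGCs are not an epithelium and are not known for these keratins.

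Levels are FPKM, in which fragments are scaled for transcript length and library size, so levels of different genes can be set side by side. Total FPKM per library ranged from 605811 to 857851, and genes with FPKM of at least 1 from 5878 to 13007. Entries of the mitochondrial genome took 17.3% to 72.2% of the total. Absolute depth is unknown. Among genes low in both libraries of a pair, the most frequent ratio put the worth of 1 fragment in wild type shield replicate 2, mutant shield replicate 2, wild type bud replicate 1 and mutant bud replicate 2 at 1.28 to 1.68 times that in wild type bud replicate 2. For the other replicates 1 the ratio was 4.44 to 6.28 but rested on 3 to 7 genes, so those libraries appear shallower and their low values are less certain. Mutant shield replicate 1 detected the fewest genes and had the highest mitochondrial share. The germ plasm genes nanos3, dnd1, ddx4, tdrd7a, ca15b and dazl, which define PGCs, were present in all 8 libraries. The marker piwil1 was not read in replicate 1 of either mutant group and reached at most 19.7 FPKM in the other libraries. Of 15 listed germ plasm genes 14 are in the table. Of these, 11 reached an FPKM of 1 in replicate 1 of either mutant group, against 13 or 14 in the other libraries.

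The 8 tested keratins were highest in a pair of libraries, mutant shield replicate 1 and mutant bud replicate 2, called the high pair here. The gap to the other 6 libraries varied by gene and was smallest for krt17, cyt1l and krt92, in this order. Outside the high pair, krt17 reached 11.3 and cyt1l 8.55 FPKM in wild type bud replicate 1, and krt92 40.2 in mutant bud replicate 1. The other replicate of each mutant group was lower for all 8. Among the type II genes, krt5 spread over the widest range. Its level was 1.34 and 0.0843 FPKM in the wild type pools of shield and 11.7 and 2.41 in those of bud, against 81.1 and 0.217 in the mutant pools of shield and 0.315 and 239 in those of bud, each time for replicates 1 and 2. Its high mutant library thus lay above both wild type libraries of its stage, and its low one lay within their range at shield and below it at bud. The mutant shield replicates differed 374-fold and the mutant bud replicates 757-fold, in opposite order.

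krt8, whose product forms simple epithelial filaments with keratin 18 in mammals, was above FPKM of 1 in all 8 libraries. It stood at 12.1 and 3.66 FPKM in the wild type pools of shield and 6.27 and 3.08 in those of bud, against 48.2 and 5.04 in the mutant pools of shield and 6.51 and 211 in those of bud. The lower mutant library lay within the wild type range at shield and just above it at bud. krt4, whose promoter is widely used to drive reporters in the surface epithelium of zebrafish, was the lowest of the type II genes in the high pair. Its level was 3.58 and 1.73 FPKM in the wild type pools of shield and 1.96 and 2.39 in those of bud, against 15.3 and 0.506 in the mutant pools of shield and 0 and 54.1 in those of bud. Mutant bud replicate 1, where krt4 was listed at 0, is one of the libraries with few genes detected.

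krt18a.1 was the most abundant keratin in the high pair. It stood at 17.4 and 14.0 FPKM in the wild type pools of shield and 13.5 and 1.57 in those of bud, against 265 and 1.81 in the mutant pools of shield and 8.50 and 354 in those of bud. The lower library of the high pair exceeded the next highest library by 15.2-fold, against 4.27-fold for krt4, 6.95-fold for krt5 and 3.97-fold for krt8. Without the high pair krt18a.1 lay between 1.57 and 17.4 FPKM, with both wild type shield libraries at the upper end.

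krt92, cyt1l, cyt1 and krt17 lie in this order on 1 chromosome in the RefSeq gene table of the assembly GRCz12tu, with 1 unnamed locus between krt92 and cyt1l. cyt1 stood at 14.8 and 4.04 FPKM in the wild type pools of shield and 12.7 and 4.66 in those of bud, against 45.2 and 1.35 in the mutant pools of shield and 10.9 and 42.3 in those of bud. cyt1l, named for its likeness to cyt1, stood at 3.80 and 0.882 FPKM in the wild type pools of shield and 8.55 and 2.15 in those of bud, against 24.7 and 0.377 in the mutant pools of shield and 1.68 and 13.0 in those of bud. cyt1 and cyt1l were highest in mutant shield replicate 1, whereas the other 6 tested keratins were highest in mutant bud replicate 2. krt17 stood at 0.895 and 3.04 FPKM in the wild type pools of shield and 11.3 and 1.78 in those of bud, against 16.0 and 0.888 in the mutant pools of shield and 5.25 and 17.5 in those of bud. The lower library of the high pair exceeded the next highest by only 1.42-fold, with wild type bud replicate 1 close behind.

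krt92 lay close together in the 4 wild type libraries. It stood at 7.22 and 9.42 FPKM in the wild type pools of shield and 7.14 and 6.33 in those of bud, against 69.6 and 6.04 in the mutant pools of shield and 40.2 and 86.7 in those of bud. The 4 wild type libraries and mutant shield replicate 2 thus lay between 6.04 and 9.42, and mutant bud replicate 1 was high for krt92 while krt5 there was at 0.315 and krt4 at 0. For no other tested keratin was mutant bud replicate 1 the next library after the high pair. Such closely related genes can share reads, and how the authors divided reads with several alignments is not given in the sources used here, so the split between single genes is less certain than their sum.

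krtt1c19e, a marker of basal keratinocytes, was close to absent. It was listed at 0 in 7 libraries and at 0.131 FPKM in wild type shield replicate 2, and it did not pass the filter of FPKM of at least 1 in at least 2 libraries. The RefSeq table lists it as krt1-19e, next to krt92. The basal keratin was thus the 1 member with no level to compare.

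**Figure D1:**
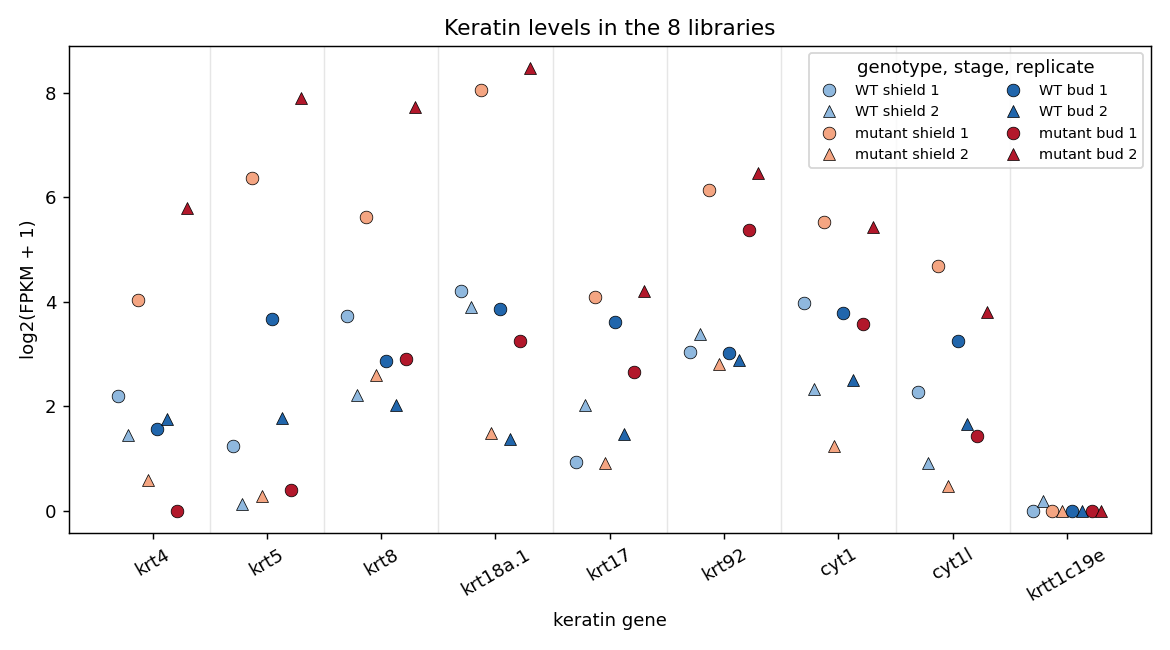
Levels of the 9 keratins, as log2(FPKM + 1), with 1 point per library; circles are replicates 1, triangles replicates 2, and colours give genotype and stage. Mutant shield replicate 1 and mutant bud replicate 2 lie above the other 6 libraries for 8 genes, and krtt1c19e lies near 0 throughout.

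In all 8 tested keratins, mutant shield replicate 1 and mutant bud replicate 2 were the 2 highest libraries. These libraries were singled out after the values were seen. Of the 13984 genes tested, 129 (0.922%) had the same order. The summed FPKM of the 9 keratins was 61.1 and 37.0 in the wild type pools of shield and 73.0 and 24.4 in those of bud, against 565 and 16.2 in the mutant pools of shield and 73.3 and 1017 in those of bud. Outside the high pair the sum stayed between 16.2 and 73.3, and in each wild type group replicate 1 was the higher.

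The order within the high pair depended on the mitochondrial entries. Of the FPKM of all other entries, the keratins took 0.263% in mutant shield replicate 1 and 0.171% in mutant bud replicate 2, against 0.0033% to 0.0171% in the other 6. On that scale mutant shield replicate 1 was the highest library. Mutant shield replicate 1 exceeded mutant shield replicate 2 and both wild type shield libraries on either scale, and mutant bud replicate 2 did so among the bud libraries.

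In deposited FPKM, germ plasm mRNA was lowest in the libraries where keratin mRNA was highest. The summed FPKM of 14 germ plasm genes was 7849 and 24763 in the wild type pools of shield and 10022 and 16666 in those of bud, against 5458 and 35881 in the mutant pools of shield and 18133 and 3638 in those of bud. Set against that sum, the keratin sum came to 10.3% in mutant shield replicate 1 and 28.0% in mutant bud replicate 2, and to 0.0452% to 0.779% in the other 6, a ratio that moves with either sum. Mitochondrial entries took 72.2% of mutant shield replicate 1 and left 214409 FPKM. They left 357703 in wild type shield replicate 1 and 493351 in wild type bud replicate 1. Set against these remainders, the germ plasm sum of mutant shield replicate 1 was not below that of either. In both wild type groups the replicate with less germ plasm mRNA in deposited FPKM had the higher keratin sum, at 61.1 against 37.0 FPKM at shield and 73.0 against 24.4 at bud. That replicate also had the higher mitochondrial share, at 58.3% against 22.9% at shield and 30.5% against 17.8% at bud. Within mutant bud, replicate 1 likewise had more germ plasm mRNA and less keratin mRNA than replicate 2. Set against wild type bud, mutant bud replicate 1 went the other way. Its germ plasm sum of 18133 lay above both wild type bud libraries, yet its keratin sum of 73.3 was not below theirs of 73.0 and 24.4. Of that keratin sum, krt92 alone made up 54.8%. The part of germ plasm content in the keratin levels was not tested.

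**Figure D2:**
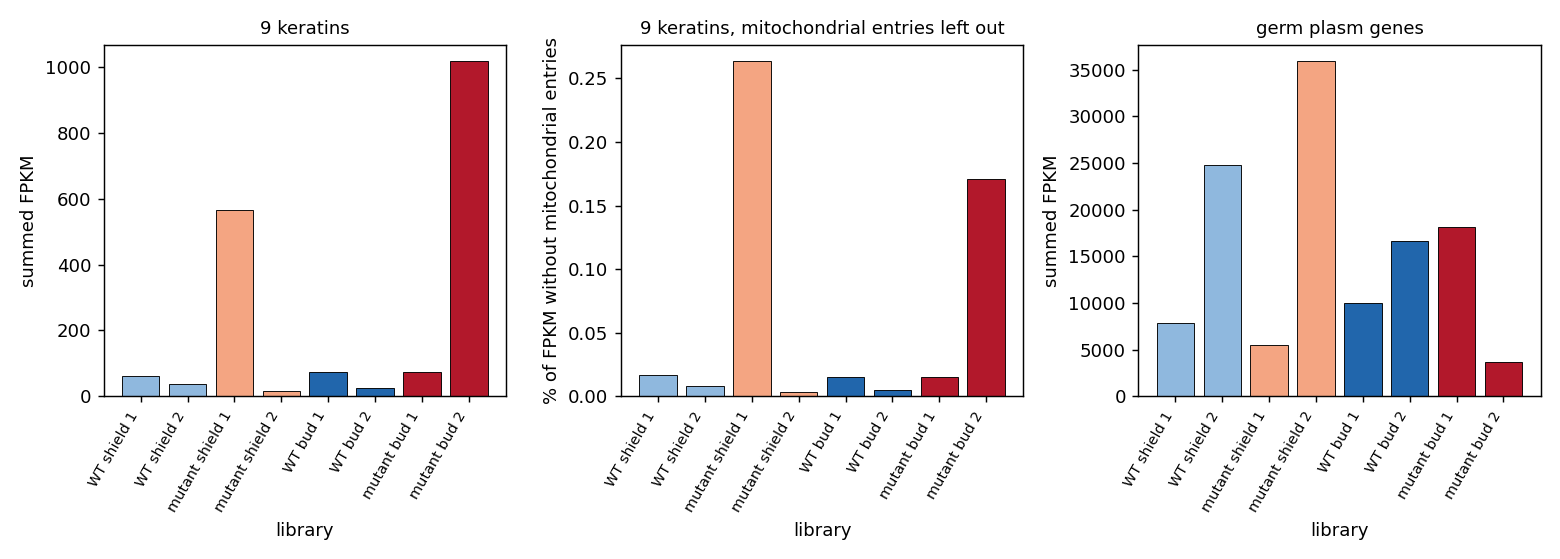
Bars give, per library, the summed FPKM of the 9 keratins (left), their share of all FPKM without mitochondrial entries (middle) and the summed FPKM of 14 germ plasm genes (right). The keratin sum reaches 565 and 1017 in the high pair, where the germ plasm sum in deposited FPKM is lowest at 5458 and 3638.

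The high pair did not hold the same mixture of keratins. From mutant shield replicate 1 to mutant bud replicate 2 the FPKM of krt8 was 4.38 times as high, of krt4 3.54 times and of krt5 2.95 times, and that of krt18a.1 1.33 times. krt92 and krt17 were nearly level at 1.25 and 1.095 times, and cyt1 at 0.937 and cyt1l at 0.525 times were lower at bud. With mitochondrial entries left out each ratio was smaller, from 1.58 for krt8 and 1.06 for krt5 down to 0.337 for cyt1 and 0.189 for cyt1l. Leaving out those entries changes the ratio of every gene by the same factor, so it bears on the level of the ratios and not on their order, which had the type II genes at the top and cyt1 and cyt1l at the bottom. This sets 1 library against 1 other, so it has no replicate error, and the libraries also differ in stage.

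**Figure D3:**
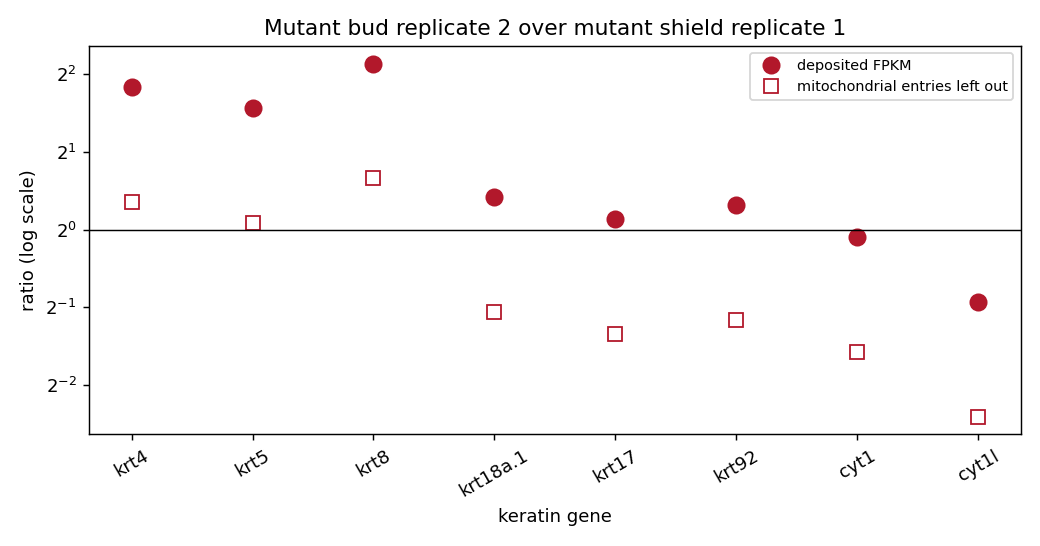
Level of each tested keratin in mutant bud replicate 2 divided by its level in mutant shield replicate 1, on a log axis; filled circles use deposited FPKM, open squares leave out mitochondrial entries. krt8 has the highest ratio and cyt1l the lowest, and the open squares are the filled circles shifted by the same factor for every gene.

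The type II genes krt4, krt5 and krt8 made up 49.5% of the keratin sum in mutant bud replicate 2 and 25.6% in mutant shield replicate 1. In the other libraries their share ran from 9.31% in mutant bud replicate 1 to 35.5% in mutant shield replicate 2. krt18a.1 was the leading keratin in wild type shield (28.5% and 37.8% of the sum), in mutant shield replicate 1 (46.9%), in wild type bud replicate 1 (18.4%) and in mutant bud replicate 2 (34.8%). krt92 led in the remaining 3, with 37.2% in mutant shield replicate 2, 26.0% in wild type bud replicate 2 and 54.8% in mutant bud replicate 1. krt92 therefore took its largest shares where the keratin sum was small or where krt5 and krt4 were near 0.

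**Figure D4:**
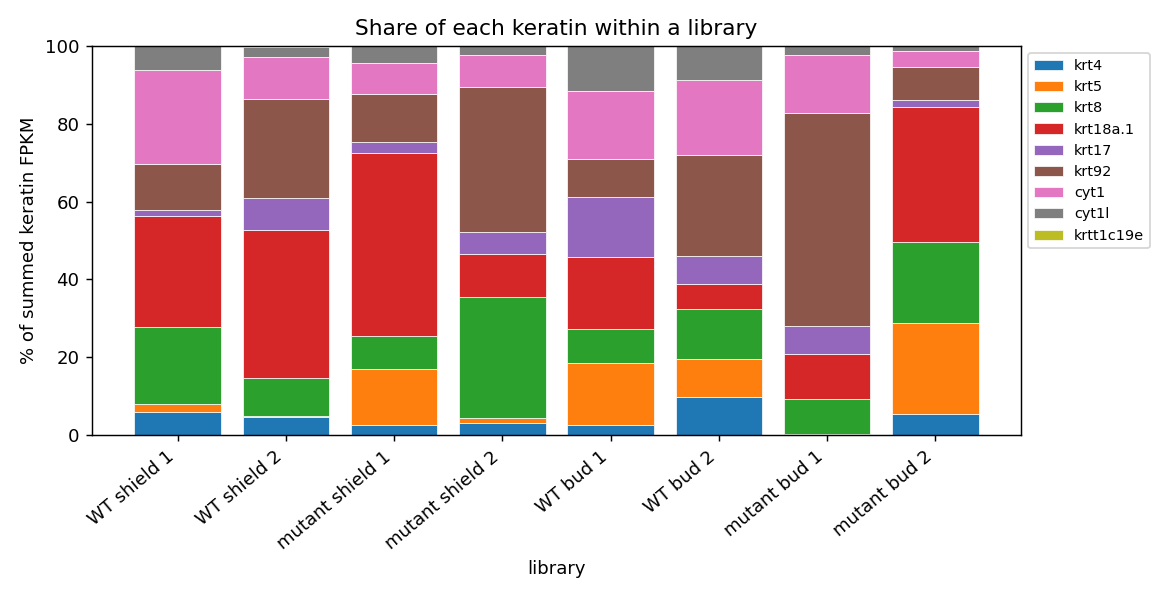
Stacked bars give the share of each keratin in the summed keratin FPKM of its library. krt18a.1 leads in 5 libraries, and krt92 takes 54.8% in mutant bud replicate 1 but 8.53% in mutant bud replicate 2.

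Between genotypes at shield, no keratin passed the test. The fit was limma on log2(FPKM + 1) over all tested genes, with two-sided p-values adjusted after Benjamini and Hochberg and a threshold of 0.05. It called 0 of 8 keratins and 0 of 13984 genes (0%), and 0 keratins and 201 genes had an unadjusted p under 0.05. The log2 differences, mutant minus wild type, had a median of 1.01 over the 8 keratins and of −0.30 over all genes, with 8 of 8 keratins above 0 against 33.8% of genes. The largest was that of krt5 at 2.65 (SE 2.31, 95% interval −2.28 to 7.57, limma adjusted p = 1), and the smallest that of cyt1 at 0.22 (SE 1.60). In 0 of 8 keratins did the mutant shield libraries lie apart above the wild type ones, where 4.26% of all genes did so, and in 0 of 8 below them, where 12.2% did. Without mutant shield replicate 1, the library with the fewest genes, 0 of 8 keratins were above 0 and the median was −0.84, and without mutant shield replicate 2 it was 2.79. Median-of-ratios scaling and quantile normalization moved the median of all genes to −0.16 and 0.05 and gave keratin medians of 1.44 and 1.35, again with 8 of 8 above 0.

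At bud, too, the fit called 0 of 8 keratins and 0 of 13984 genes (0%). krt92 came nearest, with a log2 difference of 2.96 (SE 1.34, 95% interval 0.11 to 5.81), an unadjusted p of 0.0426 and a limma adjusted p of 0.959, as 1 of 677 genes with an unadjusted p under 0.05. krt18a.1 had 3.25 (SE 1.95, adjusted p = 0.959) and krt8 had 2.87 (SE 1.66, adjusted p = 0.959), and without mutant bud replicate 2 they had 0.64 and 0.47. Both mutant bud libraries lay above both wild type bud libraries for 2 of 8 keratins, krt8 and krt92, and for 8.19% of all genes, and below them for 0 of 8 and 28.9%. For krt8 that gap was small, at 6.51 against 6.27 FPKM. The median was 1.40 over the keratins and −0.51 over all genes. Without mutant bud replicate 2 it was 0.27 over the keratins with 5 of 8 above 0, where krt92 had 2.41. Leaving out mutant bud replicate 1 gave a median of 3.81, and it was 2.19 or 1.03 with replicate 1 or 2 of wild type bud left out. After median-of-ratios scaling and quantile normalization the median of all genes was −0.34 and 0.04 and that of the keratins 1.56 and 2.54.

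Over both stages the log2 difference of krt92 was 2.11 (SE 0.95, 95% interval 0.10 to 4.13, unadjusted p = 0.0408, limma adjusted p = 0.983), and it was 1 of 597 genes with an unadjusted p under 0.05. No keratin and none of the 13984 genes (0%) was called. krt5, krt8 and krt18a.1 had 2.04, 2.01 and 1.98 with SE of 1.64, 1.17 and 1.38, and the other 4 keratins 0.57 to 0.96. The median was 1.47, beside −0.42 over all genes. Without mutant shield replicate 1 it was 0.25, without mutant bud replicate 2 it was 0.45, and without both it was −0.85, with 2 of 8 keratins above 0.

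**Figure D5:**
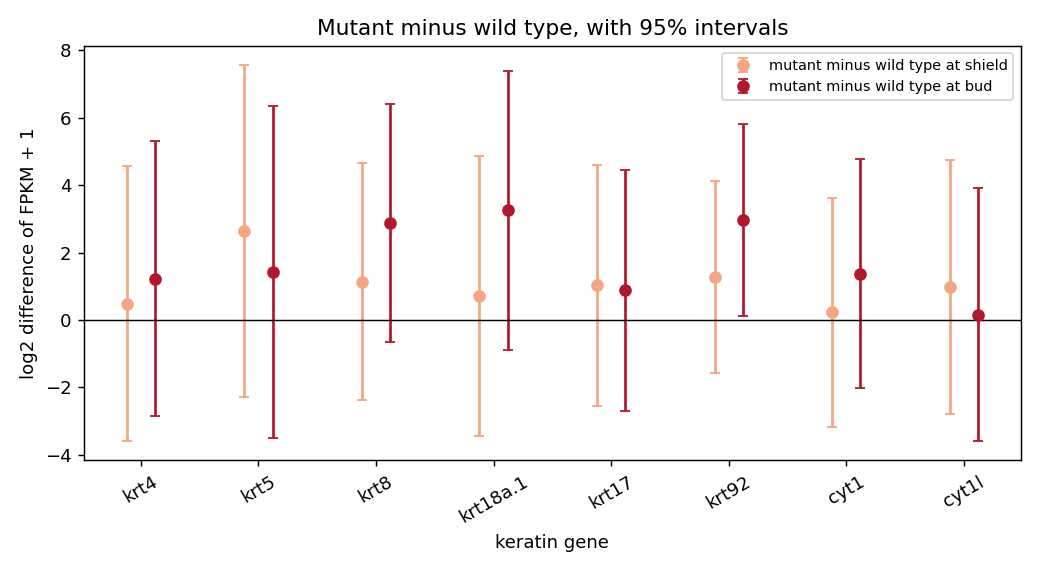
Log2 differences between mutant and wild type in FPKM + 1 for the 8 tested keratins at shield and at bud, with 95% intervals from limma (2 libraries a group). All 16 values lie above 0, and 15 of the 16 intervals include 0, that of krt92 at bud being the exception.

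From shield to bud, 0 of 8 keratins were called in wild type PGCs and 0 in mutant PGCs, where 0 of 13984 genes (0%) were called in either, and no keratin but 467 and 928 genes had an unadjusted p under 0.05. In wild type PGCs the median log2 difference was −0.09, against 0.51 over all genes. krt5 stood at 1.34 and 0.0843 FPKM at shield and at 11.7 and 2.41 at bud, and its difference of 2.04 (SE 2.31, limma adjusted p = 1) did not pass. That SE is shared by all 4 groups, so it takes in the wide spread of krt5 between the mutant replicates. A fit of only the wild type libraries also called 0 of 8 keratins and 0 of 12486 genes, with a smallest keratin limma adjusted p of 0.589. krt5 was the 1 keratin whose wild type bud libraries lay apart above shield, as 29.1% of genes did. Apart below shield lay krt18a.1 and krt92, 2 of 8 keratins against 9.89% of genes. Both gaps were small, at 14.0 against 13.5 FPKM for krt18a.1 and 7.22 against 7.14 for krt92. The mutant libraries of the stages lay apart for 0 of 8 keratins, against 14.7% of genes higher and 8.77% lower at bud. In mutant PGCs the median was 1.01 against 0.25 over all genes, with the high library in replicate 1 at shield and in replicate 2 at bud. Leaving out mutant shield replicate 2 or mutant bud replicate 2 turned this median to −1.08 or −1.17. In wild type PGCs it turned to 0.38 without shield replicate 1 and 0.26 without bud replicate 2. The test of whether the genotype difference changed with stage gave 0 calls among 8 keratins and 13984 genes (0%), with 0 keratins and 199 genes at an unadjusted p under 0.05. These comparisons share libraries with one another and are not independent.

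Among the other keratin genes, krt97 and krt99 were highest in the same pair of libraries. Of 14 further keratin symbols in the table, 7 were at 0 in all 8 libraries and 3 passed the filter. krt97 was the most abundant of them, at 4.73 and 7.41 FPKM in the wild type pools of shield and 3.53 and 1.76 in those of bud, against 159.8 and 2.08 in the mutant pools of shield and 11.9 and 440.3 in those of bud. Its mutant bud libraries both lay above wild type bud, as those of krt92 did, and its log2 difference there was 4.41 (SE 1.86, unadjusted p = 0.0312, limma adjusted p = 0.959). krt99 stood at 21.2 FPKM in mutant shield replicate 1, 5.01 in mutant bud replicate 2 and at most 3.47 elsewhere. krt91, the neighbour of krt17, was highest in mutant bud replicate 2 at 6.44 FPKM, but stood at 0.675 in mutant shield replicate 1, below the 5.41 of wild type shield replicate 1.

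Genes of the surface layer that are not keratins gave a mixed picture. A list of 24 such genes, of which 23 are in the table and 17 were tested, had 0 called in any of the 6 comparisons, with 4 of 17 higher in the mutant at shield and 11 of 17 at bud. Its summed FPKM was 479 and 951 in the wild type pools of shield and 304 and 455 in those of bud, against 421 and 722 in the mutant pools of shield and 407 and 374 in those of bud, so the sum did not stand out in the high pair. Of the 21 members above 0 in any library, 3 were highest in mutant shield replicate 1 and 5 in mutant bud replicate 2. In mutant bud replicate 2, 15 members reached an FPKM of 1, against 11 to 14 in the other libraries. Its highest members were epcam, an epithelial adhesion molecule, and klf2b, a transcription factor, which ranged over the 8 libraries from 66.4 to 322 and from 27.6 to 306 FPKM. Neither was highest in the high pair.

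The more specific markers did follow the keratins in part. cldne, a tight junction claudin of the enveloping layer, stood at 6.10 and 13.4 FPKM in the wild type pools of shield and 1.48 and 0.902 in those of bud, against 40.7 and 5.09 in the mutant pools of shield and 0 and 24.6 in those of bud. grhl3, a transcription factor of the surface epithelium, was at 10.3 FPKM in mutant shield replicate 1, at 0.678 in wild type shield replicate 2 and at 0 in the other 6. anxa1c, an annexin, was at 11.0 FPKM in mutant shield replicate 1, 1.65 in mutant bud replicate 2 and at most 0.960 elsewhere. Thus cldne was highest in the same pair as the keratins, while grhl3 and anxa1c were high in mutant shield replicate 1 and at 0 or 1.65 in mutant bud replicate 2.

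Genes of the basal epidermis differed between the libraries of the high pair. Of the 17 listed genes above 0 in any library, 10 were highest in mutant bud replicate 2 and 0 in mutant shield replicate 1. In mutant bud replicate 2, 14 of the 18 reached an FPKM of 1, against 4 in mutant shield replicate 1 and 4 to 9 elsewhere. Over all genes, 12037 reached it in mutant bud replicate 2 and 5878 in mutant shield replicate 1. Stage differs too, and in wild type PGCs 8 of the 9 tested genes were higher at bud, with a median log2 difference of 2.36. The parts of stage and depth in these counts were not tested. lamb1a, a laminin chain of basement membranes, was at 1.95 FPKM in mutant shield replicate 1 and at 94.0 in mutant bud replicate 2, and tfap2a, a transcription factor of the ectoderm, at 0 and 31.4. tp63 was at 0 in mutant shield replicate 1 and at 12.6 FPKM in mutant bud replicate 2, against 39.6 in wild type bud replicate 1. gata2a, a regulator of the ventral ectoderm, stood at 5.93 and 8.22 in the high pair and at up to 73.2 in wild type bud replicate 2. The listed marker gata3 was level in the high pair, at 12.6 and 12.4, and reached 36.5 in wild type bud replicate 1. dlx3b, of the ectoderm at the neural plate border, was at 0 in mutant shield replicate 1 and at 55.2 in mutant bud replicate 2, near the 52.0 of wild type bud replicate 1. Of 18 basal epidermis genes 9 were tested and 0 called in any comparison, and their sum was 23.8 in mutant shield replicate 1 and 297 in mutant bud replicate 2, against 22.2 to 216 elsewhere.

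Desmosomes and plakins, which anchor keratin filaments at cell junctions, were low. Of 17 such genes 15 are in the table and 13 were tested, with 0 called in any comparison. Their sum was 26.4 FPKM in mutant shield replicate 1 and 70.6 in mutant bud replicate 2, against 23.0 to 52.5 in the other 6, so the first of these lay within the range of the other libraries and the second was the highest of the 8. dspa, desmoplakin, was at 0.541 and 13.0 FPKM in the high pair and at most 2.18 elsewhere. jupa, plakoglobin, was at 16.8 and 33.7 in the high pair and 9.01 to 30.7 elsewhere. pleca was at 0 and 6.24 in the high pair and at most 1.94 elsewhere. pkp3b went the other way, at 0 and 2.96 in the high pair and at 11.0 in wild type shield replicate 1. Of the 15 members above 0 in any library, 1 was highest in mutant shield replicate 1 and 4 in mutant bud replicate 2.

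Markers of other cell types differed between the libraries of the high pair. These libraries also differ in stage and in the genes reaching an FPKM of 1, with 5878 in mutant shield replicate 1 and 12037 in mutant bud replicate 2. The genes he1.1, he1.2 and pax2a were at 0 in every shield library, so their 0 is not particular to mutant shield replicate 1. Hatching gland genes were summed at 0 in mutant shield replicate 1 and at 569 FPKM in mutant bud replicate 2, against at most 14.8 elsewhere, with 7 of 7 genes in the table and 3 tested. he1.1 and he1.2, hatching enzymes, were read in mutant bud replicate 2 alone, at 145 and 66.2. Neural plate genes (12 of 12 in the table) were summed at 74.3 and 1119 in the high pair, against 38.4 to 211 elsewhere, and pax2a was at 0 and 217. Mesoderm genes (12 of 12) were summed at 110.2 and 709, within the 99.7 to 748 of the other 6. Of the 11 above 0 in any library, 6 were highest in mutant bud replicate 2. noto was among these, at 0 and 109 in the high pair and at most 37.2 elsewhere. tbxta (2.04 and 131), her7 (22.0 and 94.2) and tbx16 (79.6 and 44.6) were higher elsewhere, at up to 408, 271 and 229. Yolk syncytial genes (8 of 8) were summed at 7.38 and 33.9, within 1.61 to 91.1. None of the tested members of these lists was called in the 6 comparisons. Mutant bud replicate 2 thus held high keratins together with hatching gland and neural genes, and mutant shield replicate 1 held high keratins with those genes at 0 or within the range of the other 6. The part of these genes' cell types in the keratin values was not tested, nor was that of stage or depth in this contrast.

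The genes most like the keratins were ranked by the mean absolute difference, over the 8 libraries, between their centred log2(FPKM + 1) and the mean centred profile of the 8 tested keratins. Among 11572 tested genes with a gene name, the nearest were sox32 (0.50), capn9 (0.54), pitpnc1b (0.59), abtb2b (0.71), hps3 (0.71), atp5f1d (0.71), anxa1b (0.72), foxo1a (0.73), ssr3 (0.77) and angptl4 (0.78), where the median gene was at 1.90. The members themselves lay between 0.50 for cyt1l and 1.15 for krt5. Since the profile is their own mean, these distances are not comparable with those of other genes. capn9, a calpain, and anxa1b, an annexin, are on the surface layer list. Except for anxa1b and ssr3, the nearest genes were highest in the high pair. The ranking selects genes by a profile that is highest there, so this order is not a separate result. anxa1b stood at 7.47 FPKM in mutant shield replicate 1, below the 11.7 of wild type shield replicate 1. ssr3 stood at 47.8 FPKM in mutant shield replicate 1, below 52.4 in wild type shield replicate 1 and 81.4 in mutant bud replicate 1. Both genes were highest in mutant bud replicate 2, at 17.1 and 481 FPKM. capn9 stood at 17.3 and 40.9 FPKM in the high pair and at 0.738 to 6.67 elsewhere, and sox32, a transcription factor of the endoderm, at 17.0 and 16.0 against at most 0.985 elsewhere. anxa1c followed at rank 11 (0.78) and krt99 at rank 12 (0.79), then krt91 at rank 60 (0.97), krt97 at rank 76 (0.99) and cldne at rank 544 (1.24).

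Within the keratins, the closest pair by the same measure was cyt1 and cyt1l (0.49 log2 units), followed by krt4 and krt8 (0.57) and krt17 and cyt1 (0.64). krt5 was the farthest from its fellow members, with 1.72 to krt92 and 1.22 to its closest, krt18a.1. The chromosomal neighbours cyt1, cyt1l and krt17 thus lay close to one another, and krt92 was closest to krt17 (0.70). krt5, krt8 and krt18a.1 are also neighbours in the RefSeq table. Of these, krt18a.1 was closest to krt8 (0.85) and krt5 to krt18a.1, at larger distances, while krt8 was closest to krt4. Distances can grow with a gene's range, which was 7.79 log2 units for krt5 and 3.29 for krt17. The parts of range and of shared reads in these distances were not tested.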

How the data were processed

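The authors deposited FPKM, 1 column per library, for 31934 entries. Per the submitters' processing notes, the tools were Trim Galore, STAR 2.5.3a and Cufflinks 2.2.1, with the build danRer11. Neither the annotation nor the treatment of multiple alignments is given in the sources used here. A symbol with several entries (545 symbols) was represented by its entry of highest mean FPKM, and 2 entries lacking values were dropped. Values were taken as log2(FPKM + 1). Fold changes of low genes are understated on this scale. The 13984 genes reaching an FPKM of 1 in 2 or more libraries entered a single limma-trend model of group means (limma 3.58.1, R 4.3.3, residual degrees of freedom 4, moderated 15.4). The fit was also run on simulated data. Their spread was smaller than that of the keratins, so this run does not show how the fit performs for them. P-values rest on the spread between 2 pools a group, pooled over the 4 groups and moderated across genes. A comparison of single groups thus also takes in the spread of the other groups. This spread may be technical in part. Figures used Python 3.11.15 and matplotlib 3.10.9.

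All 9 keratins are named; of each comparison list the text names up to 4 genes with the highest FPKM, and beyond these the listed cell type markers and the 10 genes of the likeness ranking. The members and lists were chosen with earlier results of these data known. The values of a further listed gene are not reported here. No protein or promoter sequences were used here.

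The alternatives tried were pseudocounts of 0.1 and 5, looser and stricter filters, 3 other scalings, limma without a trend, array weights, a replicate block, summed entries, fits of only the libraries compared, and fits with libraries left out.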

Additional observations from a re-analysis of the deposited data

How the results depend on the processing

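The count of keratins called stayed at 0 in all 124 counts made, for 6 comparisons under 21 alternatives, except that the fits of only the libraries compared gave none over both stages or for the interaction. Of 496 log2 differences of single keratins between genotypes under the alternatives, 460 kept their sign and stayed uncalled. The other 36 changed sign, each when libraries were left out, and none under another pseudocount or scaling. The filters, moderation, weighting, replicate block, choice of libraries in the fit and merging of entries left each of these differences unchanged. So did leaving out libraries of the other stage for a difference at shield or at bud. Such alternatives could not turn a sign but are counted in the 460, so that count does not measure how stable the signs are. At shield the differences that turned without the high pair (replicate 1 of mutant shield, replicate 2 of mutant bud) were −1.23 for krt4, −0.39 for krt5, −0.37 for krt8, −2.56 for krt18a.1, −0.55 for krt17, −0.40 for krt92, −1.92 for cyt1, −1.13 for cyt1l. Leaving out 1 library gave ranges at shield of −1.23 to 2.21 for krt4, −0.39 to 5.69 for krt5, −0.37 to 2.65 for krt8, −2.56 to 4.0 for krt18a.1, −0.55 to 2.61 for krt17, −0.40 to 2.93 for krt92, −1.92 to 2.37 for cyt1, −1.13 to 3.09 for cyt1l. At bud the differences that turned without the high pair (replicate 1 of mutant shield, replicate 2 of mutant bud) were −1.66 for krt4, −2.32 for krt5, −1.03 for cyt1l. Leaving out 1 library gave ranges at bud of −1.66 to 4.12 for krt4, −2.32 to 5.19 for krt5, −0.19 to 1.95 for krt17, −1.03 to 1.35 for cyt1l. Over both stages the differences that turned without the high pair (replicate 1 of mutant shield, replicate 2 of mutant bud) were −1.45 for krt4, −1.35 for krt5, −0.96 for krt18a.1, −0.23 for krt17, −0.74 for cyt1, −1.08 for cyt1l. Leaving out 1 library gave ranges over both stages of −0.59 to 2.30 for krt4, 0.16 to 3.92 for krt5, 0.34 to 3.63 for krt18a.1, 0.16 to 1.75 for krt17, −0.28 to 1.87 for cyt1, −0.48 to 1.63 for cyt1l. Where 1 mutant library was left it was assumed to vary like the other groups. The replicate block, with the replicate number as a term, left 0 keratins called in all 6 comparisons, with the smallest keratin adjusted p at 0.488, and moved the count of all genes called over both stages and for the interaction from 0 to 1 and from shield to bud in mutant PGCs from 0 to 5. The largest counts of all genes called, 0 with all libraries, were 237 at bud without the high pair and 195 from shield to bud in mutant PGCs without mutant shield replicate 2. Differences between replicates 1 and 2 correlated between groups with r across genes of −0.01 to 0.33, so the numbers were not taken to pair the libraries, although replicate 1 had the higher mitochondrial share and fewer genes in all 4 groups. 3 of the replicates 1 appear shallower, which limits the low values there, and absolute depth is unknown.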
